A study of Mus musculus with 6 samples.

Results

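The genes described here encode 9 enzymes that make or use asparagine, glutamine and aspartate. They were Asns, Asrgl1, Glul, Glud1, Got1, Got2, Gpt2, Pcx and Cad, found by gene symbol as 9 of the 24421 rows of a count table for mouse prostate. All 9 passed the filter on low counts, as did 13762 genes in all, and each was counted between 285 and 18820 times in every library. The libraries came from whole prostates of C57BL/6 mice at 52 weeks of age. Of these, 3 were controls with floxed p62 and no Cre in their names (p62f/f, called wild type in the labels). The other 3 were knockouts (p62FSP1KO), in which the same floxed alleles were combined with FSP1cre, a Cre driver named after the fibroblast marker FSP1 (S100a4). Per the labels p62 was removed in the stroma, and the RNA of stroma and epithelium was measured together. Both groups therefore shared the floxed alleles, and FSP1cre stands in the titles of the knockouts alone. The title of the series ties p62 to the transcription factor ATF4 and to stromal metabolism, which frames the comparison of knockout with control below.

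Asparagine, glutamine and aspartate carry nitrogen between amino acids and nucleotides. Glutamine synthetase (Glul) fixes ammonia onto glutamate, and glutamate dehydrogenase (Glud1) and the transaminases (Got1, Got2, Gpt2) move nitrogen between glutamate and the keto acids of the TCA cycle. Pyruvate carboxylase (Pcx) makes oxaloacetate, the carbon skeleton of aspartate. Asparagine synthetase (Asns) amidates aspartate with nitrogen from glutamine, the asparaginase gene Asrgl1 encodes an enzyme that splits asparagine and isoaspartyl peptides, and the multifunctional enzyme encoded by Cad spends glutamine and aspartate to begin pyrimidine synthesis. Asns is a well-known target of ATF4, which is induced when amino acids run short.

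Total counts were 12826463 to 26910053 per library, and 1 count was worth 0.0383 to 0.0751 CPM (counts per 1e+06 counts, scaled by TMM factors). Control 3 stood apart from the other controls. The summed level of 3 ventral-type secretory genes (Sbp, Sbpl, Spink1) was 65300, 49100 and 164000 CPM in the 3 controls, against 91.7, 18.1 and 3.02 CPM in the 3 knockouts. The summed level of 4 secretory genes of other lobes (Tgm4, Pbsn, 9530053A07Rik, Defb50) was 1250 CPM in control 3 and 170000 to 322000 CPM elsewhere. Defb50 went the other way within this list, at 553 CPM in control 3, 164 and 115 CPM in the other controls and 21.5 to 86.2 CPM in knockouts. The 8 adipocyte genes summed to 1200 CPM in control 3 and to 46.8 to 141 CPM elsewhere. Sqstm1, the gene of p62, stood at 360, 409 and 294 CPM in controls and 540, 387 and 462 CPM in knockouts (adjusted p = 0.355, edgeR), so its RNA gave no check of the labels in whole tissue. In whole organs fewer cells of a type and less RNA per cell cannot be told apart. Whether every library is a different mouse is not stated, and the p-values below cover only library-to-library spread, which may be technical.

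Asrgl1 and Cad fell in the knockout, by 24.0-fold and 7.19-fold, and 0 of the 9 genes rose past the threshold. Asns, Got1 and Gpt2 had positive log2 fold changes and Glul, Glud1 and Pcx negative ones, none past the threshold, and Got2 lay near 0. The 2 genes called were both lower. Over all tested genes 5.07% were called in either direction by edgeR's quasi-likelihood test at a false discovery rate of 0.05, and 4.66% were called lower. In 6 of the 9 genes the values of the groups did not overlap (Asns, Asrgl1, Glud1, Got1, Pcx and Cad), which held for 32.4% of all tested genes. An unadjusted p under 0.05 was reached by 5 of the 9 and by 22.1% of all tested genes. The median log2 fold change of the 9 genes was -0.34, and that of all tested genes was 0.03.

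**Figure D1:**
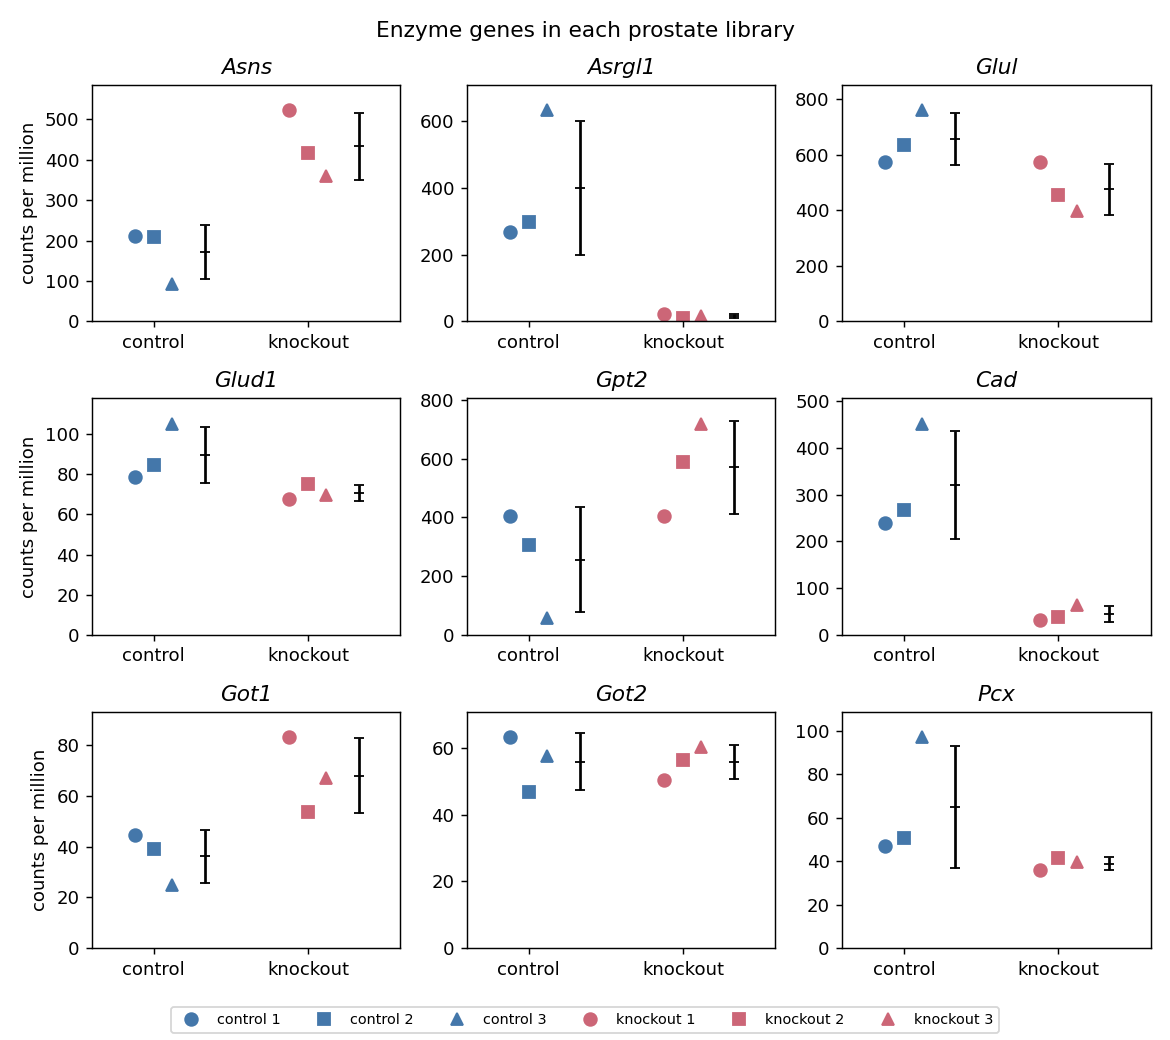
Level of each of the 9 enzyme genes in every library, in CPM on linear axes from 0, with circles, squares and triangles for libraries 1, 2 and 3 of each group and the mean ± SD of 3 libraries beside them. Asrgl1 and Cad are lower in every knockout than in every control, Asns and Got1 are higher in every knockout, and control 3 is at the edge of its group for most genes.

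Asns, which encodes asparagine synthetase (minus strand of GRCm38 chromosome 6, 7675169 to 7693254), had levels of 211, 209 and 93.5 CPM in the 3 controls and of 522, 416 and 361 CPM in the 3 knockouts. Every knockout library lay above every control, and control 3 was the lowest of the 6. The log2 fold change was 1.34 ± 0.34 (SE), with a 95% interval of 0.54 to 2.13 and an adjusted p of 0.0727 in edgeR, which missed the threshold. The call depended on the tool, since DESeq2 gave an adjusted p of 0.0018. Without control 3 the log2 fold change was 1.04 (adjusted p = 0.0609), and without control 3 and knockout 1 together it was 0.88 and passed (adjusted p = 0.0149). That last fit left out the lowest and the highest of the 6 libraries, and 8.76% of all tested genes were called in it. Atf4 followed the same order of groups, at 194, 220 and 108 CPM in controls and 541, 388 and 368 CPM in knockouts (log2 fold change 1.31 ± 0.31; adjusted p = 0.0585, edgeR). For both genes the lowest library was control 3 and the highest was knockout 1.

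Across the 6 libraries the genes with levels most like Asns were Slc3a2, Me1, Sars and Nars, with Pearson correlations of log2 CPM of 0.999, 0.999, 0.998 and 0.997 among 8966 genes compared. Slc3a2 encodes the heavy chain shared by several amino acid exchangers, Me1 the cytosolic malic enzyme, and Sars and Nars the tRNA synthetases for serine and asparagine. Slc3a2 was at 174, 168 and 91.0 CPM in controls and 378, 308 and 266 CPM in knockouts. These correlations describe 6 points that share the difference between groups, and they were picked as the highest of all genes compared.

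Asrgl1 (minus strand of chromosome 19, 9109868 to 9135636) had levels of 269, 298 and 634 CPM in the 3 controls and of 23.3, 11.8 and 15.2 CPM in the 3 knockouts. The lowest control was more than 10 times the highest knockout, and control 3 was the highest library. The log2 fold change was -4.58 ± 0.45 (SE; adjusted p = 0.00229, edgeR), and by p-value the gene ranked 63 among the 13762 tested. Leaving out each library in turn kept the call in 6 of 6 fits, with log2 fold changes from -4.89 to -4.09, the last of these without control 3. The log2 ratio of Asns to Asrgl1 CPM was -0.35, -0.51 and -2.76 in controls and 4.49, 5.14 and 4.57 in knockouts. The ratio had to separate the groups, since both genes did so in opposite directions, so no test of it is given.

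Of other genes linked to asparagine, Aga did not pass and Aspg was not tested. Aga, the lysosomal aspartylglucosaminidase, was at 45.0, 47.7 and 31.8 CPM in controls and 47.1, 36.2 and 33.6 CPM in knockouts (adjusted p = 0.826, edgeR). Aspg, a further asparaginase gene, was at 0 to 0.13 CPM in controls and 0.077 to 1.35 CPM in knockouts and was too low to be tested. The genes most like Asrgl1 over the 6 libraries were Itpripl1, Cmas, Tom1l1 and Timp4, with correlations of 0.999, 0.997, 0.997 and 0.997. Timp4, a metalloproteinase inhibitor gene, went from 122, 129 and 411 CPM in controls to 0.68, 0.21 and 0.57 CPM in knockouts. Cmas, which activates sialic acid, went from 190.0, 198 and 249 CPM to 85.9, 66.1 and 65.2 CPM.

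Cad (chromosome 5, 31054780 to 31078479, plus strand) was at 239, 268 and 452 CPM in the 3 controls and at 31.7, 38.3 and 63.1 CPM in the 3 knockouts. The groups did not overlap, control 3 was again the highest, and knockout 3 was the highest of its group. The log2 fold change was -2.85 ± 0.36 (SE; adjusted p = 0.00559, edgeR), ranking 159 of 13762 by p-value. All 6 fits that left out 1 library kept the call, with log2 fold changes of -3.19 to -2.51. Asrgl1 and Cad had a correlation of 0.962 over the libraries. Both were picked as genes called lower, so a high correlation follows from the difference between groups. The ventral-type secretory genes Sbp, Sbpl and Spink1 were likewise called lower in 3 of 3 cases, with none at 0 throughout a group, and their summed level was highest in control 3. Without control 3 the log2 fold changes of Asrgl1 and Cad were -4.09 and -2.51, both past the threshold. Controls 1 and 2 held 65300 and 49100 CPM of the ventral-type genes, far above every knockout. Leaving out control 3 therefore cannot separate the falls from the ventral-type secretory cells, whose part in them was not tested.

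The genes most like Cad over the 6 libraries were Usp15, Tyro3, Myo5c and Ppat, with correlations of 0.999, 0.998, 0.998 and 0.997. Ppat, which encodes the amidotransferase that opens purine synthesis with glutamine, was at 19.6, 19.7 and 22.4 CPM in controls and 14.0, 14.7 and 15.9 CPM in knockouts, (log2 fold change -0.47; adjusted p = 0.193, edgeR). Tyro3, a receptor tyrosine kinase gene, was at 46.4, 44.9 and 85.3 CPM in controls and 4.95, 6.00 and 11.7 CPM in knockouts.

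Of 14 genes for later steps of pyrimidine synthesis, deoxynucleotide production and uridine salvage 0 were called, against 5.07% of all tested genes. An unadjusted p under 0.05 in edgeR was reached by 3 of the 14 and by 22.1% of all tested genes. The groups did not overlap for 3 of the 14, and for 32.4% of all tested genes. Of the 14, 6 had positive and 8 negative log2 fold changes, and the median was -0.06 (4 positive and 10 negative when scaled by library size alone). Dhodh, which oxidises dihydroorotate in mitochondria, was at 22.04, 28.9 and 18.3 CPM in controls and 26.8, 25.1 and 24.0 CPM in knockouts (log2 fold change 0.13; adjusted p = 0.739, edgeR). Umps, which makes UMP, was at 1.85, 2.36 and 3.35 CPM in controls and at 1.58, 2.65 and 3.83 CPM in knockouts (adjusted p = 0.898). The ribonucleotide reductase subunit gene Rrm2 was at 8.97, 9.89 and 11.3 CPM in controls and 6.83, 7.12 and 5.47 CPM in knockouts (adjusted p = 0.183). Summed over 7 proliferation genes (Mki67, Top2a, Pcna, Mcm2, Mcm3, Mcm5 and Ccnb1) the level was 72.8 to 80.8 CPM in controls and 59.6 to 80.5 CPM in knockouts, and 0 of the 7 were called.

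**Figure D2:**
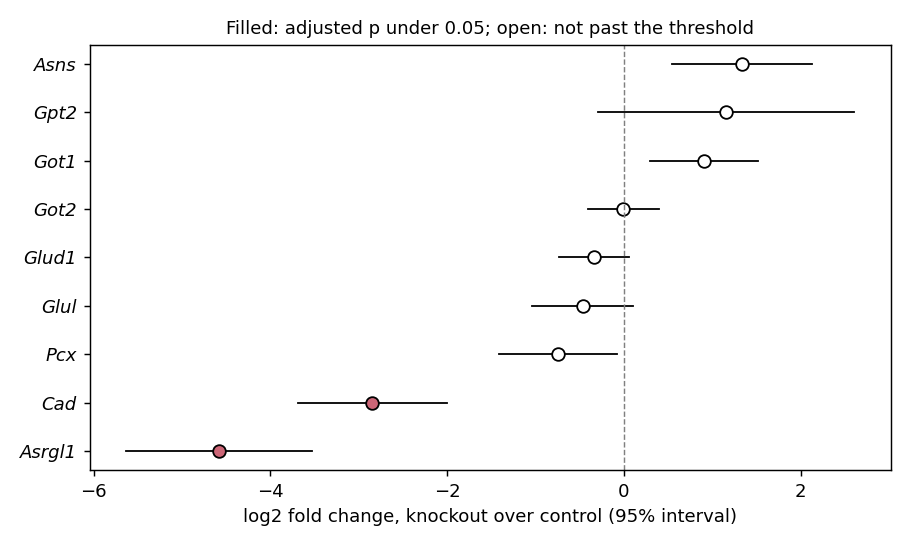
Log2 fold change of knockout over control for the 9 enzyme genes, with 95% intervals from edgeR and filled points for those with an adjusted p under 0.05. The points of Asrgl1 (-4.58) and Cad (-2.85) lie farthest from 0, and the interval of Gpt2 (-0.29 to 2.61) is the widest.

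Of the aspartate transaminases, the cytosolic form separated the groups and the mitochondrial form did not. Got1, the cytosolic form (minus strand of chromosome 19, 43499752 to 43524605), was measured at 44.7, 39.0 and 24.7 CPM in controls and 83.3, 53.8 and 67.0 CPM in knockouts. All knockouts lay above all controls, with a log2 fold change of 0.91 ± 0.26 (SE; interval 0.30 to 1.52), but the adjusted p of 0.104 missed the threshold in edgeR and was 0.0235 in DESeq2. Got2, the mitochondrial form (minus strand of chromosome 8, 95864134 to 95888547), was measured at 63.3, 46.7 and 57.7 CPM in controls and 50.4, 56.5 and 60.4 CPM in knockouts. The groups overlapped fully, and the interval of its log2 fold change ran from -0.41 to 0.40. The log2 ratio of Got2 to Got1 was 0.50, 0.26 and 1.22 in controls and -0.73, 0.07 and -0.15 in knockouts, with no overlap. Got1 separated the groups by itself, so the ratio is only a description. Its exact two-sided permutation p was 0.1, the smallest that 3 against 3 allows, which any ratio without overlap would give. A processed pseudogene, Got2-ps1, lies on chromosome 5 and has no row in the table. Of Got2's exon bases 15.0% are shared with Gm45760 on the opposite strand, which has no row either. Whether reads from these went to Got2 is not known. Of the 5 partners of these transaminases in the malate-aspartate shuttle 0 were called, against 5.07% of all tested genes. Slc25a13, an aspartate-glutamate carrier, was at 28.2, 23.3 and 3.48 CPM in controls and 41.0, 45.9 and 44.0 CPM in knockouts (adjusted p = 0.276, edgeR).

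Gpt2, the mitochondrial alanine transaminase (chromosome 8, 85492576 to 85527560, plus strand), varied most among the controls. It was at 406, 304 and 56.7 CPM in the 3 controls and at 405, 588 and 720 CPM in the 3 knockouts. Knockout 1 was level with control 1, so the groups overlapped, and the highest control was 7.16 times the lowest. The log2 fold change was 1.16 ± 0.62 (SE; adjusted p = 0.311, edgeR) and was 0.69 without control 3. Without control 3 and knockout 1 together it was 0.88 and passed the threshold (adjusted p = 0.0410), as did 8.76% of all tested genes.

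The promoters of Asns, Got1, Asrgl1 and Cad are shown because Asrgl1 and Cad were the genes called, and Asns and Got1 those with positive changes and no overlap between groups. The 250 bases before the RefSeq start (GRCm38.p6) were searched on both strands for the C/EBP-ATF response element TGATGNAA, which ATF4 is known to bind with a C/EBP partner, for the CRE TGACGTCA and for the E-box CACGTG. The stretches run 5′ to 3′ on the gene's strand and begin 160 bases before the RefSeq start. They end 16 bases before it for Asns, 41 for Asrgl1 and 1 for Got1 and Cad. The last 30 bases shown for Asns and for Asrgl1 lie past the GENCODE M21 start. Capitals mark a match to TGATGNAA or its reverse complement. Asns is chr6:7693225-7693369 (minus strand), Got1 chr19:43524606-43524765 (minus), Asrgl1 chr19:9135607-9135726 (minus) and Cad chr5:31054620-31054779 (plus).
Asns: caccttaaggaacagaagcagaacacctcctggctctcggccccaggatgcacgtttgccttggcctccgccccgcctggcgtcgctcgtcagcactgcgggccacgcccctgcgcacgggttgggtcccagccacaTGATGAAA
Got1: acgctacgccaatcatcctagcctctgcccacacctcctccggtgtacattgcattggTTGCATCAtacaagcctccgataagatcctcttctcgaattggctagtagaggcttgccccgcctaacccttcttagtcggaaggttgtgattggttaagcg
Asrgl1: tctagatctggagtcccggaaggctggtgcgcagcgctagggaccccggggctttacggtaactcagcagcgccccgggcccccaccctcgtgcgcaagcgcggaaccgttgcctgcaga
Cad: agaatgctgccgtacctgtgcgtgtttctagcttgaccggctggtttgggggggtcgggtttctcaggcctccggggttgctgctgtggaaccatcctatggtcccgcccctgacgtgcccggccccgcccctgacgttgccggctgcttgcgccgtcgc
Asns held TGATGAAA on its own strand, 23 to 16 bases before the RefSeq start. GENCODE M21 places the start of Asns 45 bases farther upstream, so by that annotation the match lies within exon 1. Got1 held TTGCATCA, a match on the opposite strand, 102 to 95 bases before its start. These were the 2 of the 9 genes with a match to TGATGNAA, which was found in 3.45% of 32851 promoters of the same length and before 3.91% of 27025 genes. The CRE letters were found before 0 of the 9 genes and in 1.55% of all promoters (1.77% of genes). The E-box was found before Pcx alone among the 9 and in 6.02% of all promoters (6.86% of genes). A match is a stretch of letters and no measure of binding.

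Pcx, pyruvate carboxylase (chromosome 19, 4510472 to 4621752, plus strand), was at 47.0, 50.4 and 97.1 CPM in the 3 controls and at 35.7, 41.3 and 39.4 CPM in the 3 knockouts. The knockouts lay closely together below all controls, and control 3 was about as far above the other controls as they were above 0. The log2 fold change was -0.74 ± 0.29 (SE; interval -1.41 to -0.07), and the adjusted p of 0.192 missed the threshold in edgeR. Without control 3 it was -0.33 (adjusted p = 0.400). The gene most like Pcx was Pnpla2, the adipose triglyceride lipase, with a correlation of 0.995 and levels of 78.8, 77.0 and 131 CPM in controls and 63.0, 69.8 and 68.4 CPM in knockouts. Pde3b (0.989) and Scd1 (0.984) were also among the genes most like Pcx. The summed level of adipocyte genes was likewise highest in control 3, where 8 of them came to 1200 CPM. It was 62.7 and 49.7 CPM in the other controls and 59, 46.8 and 141 CPM in knockouts. Knockout 3 thus lay above controls 1 and 2 in this sum but below them in Pcx. Lipe, the only 1 of the 8 with a positive log2 fold change, was at 32.5, 23.6 and 91.8 CPM in controls and 46.5, 41.8 and 76.2 CPM in knockouts. None of the 8 was called or at 0 throughout a group, and their part in the Pcx values was not tested. Of the 6 genes for other biotin-dependent carboxylases and for biotin transfer or recycling 0 were called, against 5.07% of all tested genes. Their median log2 fold change was -0.14. The groups did not overlap for 2 of the 6, and for 32.4% of all tested genes. These were Mccc1 and Hlcs, both lower in knockouts (unadjusted p = 0.0190 and 0.0434, edgeR).

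Glul, glutamine synthetase (chromosome 1, 153899944 to 153909723, plus strand), was at 576, 635 and 761 CPM in controls and 576, 455 and 397 CPM in knockouts. Knockout 1 was level with control 1 and the groups met there. The log2 fold change was -0.47 ± 0.24 (SE; interval -1.04 to 0.10; adjusted p = 0.303, edgeR). Of its exon bases 4.15% are shared with Teddm2 on the opposite strand and 3.33% with Mir8114 on the same strand, and the strand setting of the counting is not given in the sources used here. Glud1 (chromosome 14, 34310727 to 34345265, plus strand) was at 78.5, 84.8 and 105 CPM in controls and 67.7, 75.3 and 69.6 CPM in knockouts. Its groups did not overlap, but the difference was small, with a log2 fold change of -0.34 ± 0.17 (SE; adjusted p = 0.290), and -0.20 without control 3.

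Divided by exon length, the 9 genes did not stand in the same order in both groups. In controls Glul was the highest at 235 ± 33.9 CPM per kb of exon (SD, n = 3) and above the next gene in every library. Asrgl1 at 95.4 ± 48.2, Asns at 79.2 ± 31.1, Gpt2 at 70.3 ± 49.4 and Cad at 44.1 ± 15.9 CPM per kb followed, and neighbours among these 4 overlapped. Below Cad, which was above Glud1 in every library, came Glud1 at 26.4 ± 4.13, Got2 at 22.1 ± 3.33, Got1 at 17.6 ± 5.002 and Pcx at 15.3 ± 6.59 CPM per kb, and neighbours overlapped. In knockouts Asns was the highest at 200.3 ± 38.0, with Glul at 171 ± 32.8 and Gpt2 at 157 ± 43.5 CPM per kb, and neighbours among these 3 overlapped. Got1 at 33.1 ± 7.19 CPM per kb came next, below Gpt2 and above Got2 in every library, followed by Got2 at 22.03 ± 1.99, Glud1 at 20.9 ± 1.16 and Pcx at 9.13 ± 0.68 CPM per kb. Asrgl1, at 3.99 ± 1.40 CPM per kb, was the lowest of the 9 in knockouts, and overlapped with its neighbour Cad at 6.12 ± 2.29 CPM per kb. Lengths were union exons of the GENCODE M21 basic set. With the comprehensive set, chosen as an alternative after seeing the data, Got1, Pcx and Got2 changed places in controls and Glud1 and Got2 in knockouts, and the other ranks stayed.

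**Figure D3:**
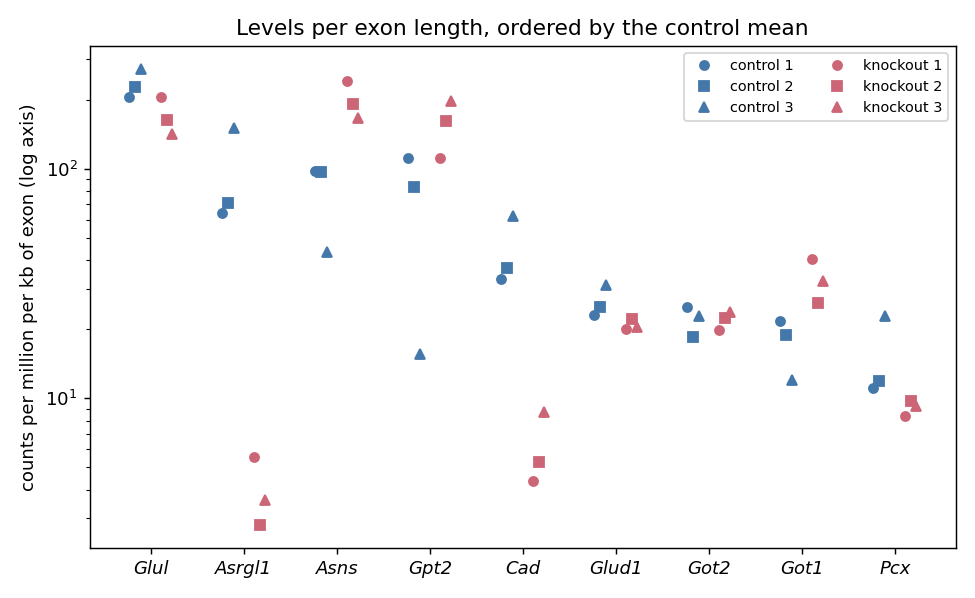
Level of each enzyme gene per kb of exon in every library, on a log axis, ordered by the control mean, with blue for controls and red for knockouts. Glul leads in controls, Asns, Glul and Gpt2 lead in knockouts, and Asrgl1 and Cad are the lowest in knockouts.

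Among the 9 genes, the levels fell into sets that ran opposite ways over the 6 libraries. Asns and Got1 had a correlation of 0.961, and Glud1 and Pcx 0.980. Between these pairs the correlation was -0.980 for Glud1 with Got1 and -0.952 for Asns with Pcx. Got2 had correlations between -0.31 and 0.12 with the other 8. These values are over 6 libraries of 2 groups, and control 3 stood at an end of the range for Asns, Got1, Gpt2, Asrgl1, Cad, Pcx, Glul and Glud1.

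The 9 neighbouring lists held 106 genes, of which 96 were tested, 1 rose and 1 fell in edgeR (2.08%, against 5.07% of all tested genes), and the median log2 fold change was -0.06. This order of the shares held under the other scalings and filters and in limma-voom, but not under every setting. DESeq2 called 12.5% of the list genes and 11.8% of all genes, and without control 3 and knockout 1 together the shares were 10.4% and 8.76%. Without knockout 3 they were 2.06% and 2.02%. An unadjusted p under 0.05 was reached by 29 of the 96 (30.2%, against 22.1% of all tested genes). Both called genes were carriers, among 13 tested. Slc7a8, which encodes a light chain for neutral amino acid exchange, was at 51.5, 50.3 and 33.5 CPM in controls and 118, 144 and 110.0 CPM in knockouts (log2 fold change 1.46 ± 0.22; adjusted p = 0.0109, edgeR). Its call was lost without knockout 2 (adjusted p = 0.0538). Slc6a14, which encodes a broad amino acid transporter that carries glutamine, was at 6.19, 5.23 and 9.01 CPM in controls and 0.83, 0.87 and 0.77 CPM in knockouts (log2 fold change -3.04 ± 0.35; adjusted p = 0.00348).

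The other glutamine carriers did not pass in edgeR. Slc1a5, the ASCT2 exchanger gene, was at 497, 444 and 597 CPM in controls and 240, 314 and 376 CPM in knockouts (adjusted p = 0.150). Slc38a2, the SNAT2 carrier gene, was at 138, 127 and 129 CPM in controls and 172, 227 and 221 CPM in knockouts (adjusted p = 0.0903). For each of these carriers the groups did not overlap, and they lay in opposite directions. DESeq2 called both.

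The 8 amidotransferase genes that share the use of glutamine with Asns and Cad all had negative log2 fold changes. These ran from -0.66 to -0.06 with a median of -0.28, and 0 of the 8 were called, against 5.07% of all tested genes. All 8 were negative under each of the 4 other scalings too, which shift all genes by similar amounts. The groups did not overlap for 3 of the 8, and for 32.4% of all tested genes. Gfpt1, the entry enzyme of hexosamine synthesis, was at 698, 750.1 and 687 CPM in controls and 336, 441 and 569 CPM in knockouts (adjusted p = 0.192, edgeR). Among 8 tested genes of aspartate use 0 were called. Asl, argininosuccinate lyase, was at 90.9, 73.9 and 171 CPM in controls and 67.0, 52.4 and 51.4 CPM in knockouts (adjusted p = 0.139), and Ddo, D-aspartate oxidase, was at 1.40 to 2.66 and 0.53 to 0.57 CPM (adjusted p = 0.0526). Among 17 tested genes of glutamine, glutamate and asparagine turnover 0 were called, with a median of 0.26. Among 18 genes of pyruvate entry and cataplerosis 0 were called, with a median of 0.09 (-0.05 when scaled by library size alone), and Pck2, mitochondrial phosphoenolpyruvate carboxykinase, was at 141, 148 and 76.1 CPM in controls and 215, 238 and 191 CPM in knockouts (adjusted p = 0.144). Among 9 genes that charge tRNAs with asparagine, aspartate, glutamine or glutamate, or amidate them, 0 were called and 7 had positive log2 fold changes (5 when scaled by library size alone).

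**Figure D4:**
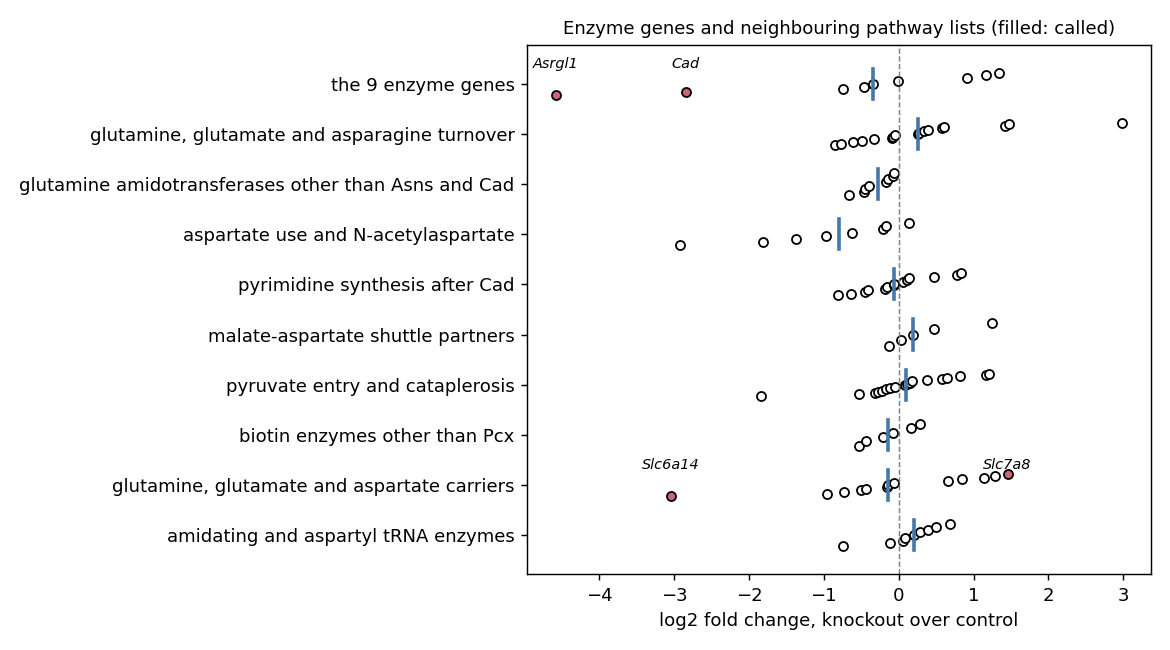
Log2 fold change of knockout over control for the 9 enzyme genes and for the tested genes of 9 neighbouring lists, with filled points for genes with an adjusted p under 0.05 and a blue bar at each list's median. Asrgl1, Cad and Slc6a14 are filled on the left and Slc7a8 on the right, and the list medians lie between -0.80 and 0.26.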

How the data were processed

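Polyadenylated RNA of 6 prostate samples, 3 per group, was made into strand-preserving libraries and sequenced single-end, per the labels' protocols. The authors deposited raw whole-number read counts for 24421 gene symbols, with no normalization. STAR, DESeq2 and the mm10 build appear in the submitters' processing notes, without versions or roles. How reads were assigned to genes, and whether strand was used, is not given in the sources used here. All columns were matched by title, and replicate numbers follow sample order and pair nothing.

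Counts were tested with edgeR 4.0.16 in R 4.3.3 by the quasi-likelihood F test, knockout against control, with TMM factors and edgeR's expression filter at a minimum count of 10. P-values were adjusted by Benjamini-Hochberg over 13762 genes, with a threshold of 0.05. Each standard error was the log2 fold change divided by the root of F. Libraries of a group varied by 32.5% (edgeR's common biological coefficient of variation), which limits how small a change can pass. Simulated counts with known changes were used to check the test. Reads carry no molecular identifiers. Alternatives were other scalings and filters, DESeq2 1.42.0, limma-voom (limma 3.58.1), a false discovery rate of 0.1, and leaving out libraries. The comprehensive exon set was chosen as an alternative after seeing the data. Positions and exon lengths were taken from the GENCODE M21 annotation of GRCm38 (mm10), and promoters are from RefSeq, where all 9 genes were matched.

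The 9 genes, the gene lists, the motifs and the naming rule were chosen with earlier results of these data known. The rule named the 9 genes, Atf4, list members past the threshold, and for Asns, Asrgl1, Cad and Pcx the 4 genes with the highest Pearson correlation of log2 CPM (prior count of 1) over the 6 libraries, among genes with a mean log2 CPM of at least 3. Other list genes were named after their values were seen. A few genes that the rule or the lists hold are not reported here.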

Additional observations from a re-analysis of the deposited data

How the results depend on the processing

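Asrgl1 and Cad were called lower under all 15 alternatives (log2 fold changes of -4.89 to -4.09 and -3.19 to -2.32), and their number stayed at 2. The number of enzyme genes called higher was 0 with edgeR, other scalings, other filters, limma-voom and each library left out. It was 1 at a false discovery rate of 0.1, 2 with DESeq2 (Asns and Got1) and 2 without control 3 and knockout 1 together (Asns and Gpt2). Neighbouring-list genes called higher and lower numbered 4 and 3 at a false discovery rate of 0.1, 7 and 5 with DESeq2, and 8 and 2 without control 3 and knockout 1, with 2 lower under the filter of 1 CPM in 3 libraries. With each library left out they ranged from 0 to 2 and from 1 to 2. Over all genes 57 were called higher and 641 lower. These numbers were 196 and 994 at a false discovery rate of 0.1, 455 and 1163 with DESeq2, and 15 to 73 and 240 to 478 with a library left out. Without control 3 and knockout 1 together 367 were called higher. The cause of these shifts was not tested. Got2, at -0.0048 on the log2 scale, changed sign with size factors (0.0065), upper-quartile factors (0.041), DESeq2 (0.0068), limma-voom (0.0038), and without control 3 and knockout 1 together (0.083). It ranged from -0.12 to 0.093 with each library left out. Every other enzyme gene kept its sign in all 15. Atf4 passed the threshold in 5 of 15. The median log2 fold change of all genes was -0.10 with library size alone and 0.08 with upper-quartile factors.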

Other observations

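Some genes of the neighbouring lists had 1 or 2 libraries far from the others. Slc38a3, a glutamine carrier gene, was at 14.3 CPM in knockout 1 and at 0 to 0.20 CPM in the other 5 libraries, and Slc1a2, a glutamate carrier gene, was at 4.88 CPM in knockout 1 and at 0.049 to 1.02 CPM elsewhere. Both were removed by the filter on low counts, while the 4 genes that follow were tested and not called. Nme1 and Nme2, nucleoside diphosphate kinase genes, were at 218 and 493 CPM in knockout 1 and at no more than 89.1 and 238 CPM in the other libraries. Mdh1, cytosolic malate dehydrogenase, was at 732 CPM in knockout 1 and 345 to 393 CPM elsewhere. Pck1, cytosolic phosphoenolpyruvate carboxykinase, was at 89.6 CPM in control 3 and 22.8 CPM in knockout 1, and at 0.083 to 3.14 CPM elsewhere.

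Control 3 was the lowest library for some list genes and the highest control for others, all named after their values were seen. Prodh, proline dehydrogenase, had levels of 166, 179 and 8.67 CPM in the 3 controls and of 299, 326 and 317 CPM in knockouts. Slc7a5, the LAT1 light chain gene, was at 168, 192 and 36.2 CPM in controls and 333, 322 and 307 CPM in knockouts. In both genes control 1 and 2 lay below all knockouts, and neither passed the test (adjusted p = 0.353 and 0.212, edgeR). Pycr1, a proline synthesis enzyme gene, was at 39.2, 41.5 and 80.3 CPM in controls and 20.6, 34.8 and 33.6 CPM in knockouts, with control 3 the highest. Slc1a3, a glutamate carrier gene, was at 9.63 CPM in control 3 and 1.08 to 2.37 CPM in the other libraries.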
